A study of Mus musculus with 4 samples.

Results

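Transcripts of 9 genes of the myeloid cell surface were followed in cultured mouse periosteal cells: 5 C-type lectin receptors (*Clec4n*, *Clec4d*, *Clec4e*, *Clec5a* and *Clec7a*) and 4 members of the membrane-spanning 4A family (*Ms4a6b*, *Ms4a6c*, *Ms4a6d* and *Ms4a7*). They were taken by gene symbol out of the 45802 symbols of the deposited expression table, and all 9 were among the 14415 genes with a value in each of the 4 libraries. They were chosen by their log2 values in these libraries, namely the difference between the populations, overall and within each library number, so that this difference is described for them without a test. The mice carried a tamoxifen-dependent CreER driven by the *Pdgfra* promoter together with the mTmG reporter. In such animals, tamoxifen switches a cell and its descendants from membrane tdTomato to membrane GFP. Male mice aged 9 to 10 weeks received tamoxifen on 5 days (150 mg/kg daily), and hindlimb periosteum was digested 14 days after the last dose. The cells were expanded for 1 passage with 10 ng/mL bFGF and sorted as negative for CD31, CD45 and Ter119, into GFP-bearing PDGFRα reporter+ and tdTomato-bearing PDGFRα reporter− cells. All animals of both groups thus carried the same alleles and received the same tamoxifen, and each population was pooled from 3 to 6 mice according to the sample labels (the study's methods give a larger number).

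Total RNA of 2 libraries of each population had been sequenced. The values are on a log2 scale after quantile normalization, which gives every library the same distribution (median 1.48, range −10.07 to 11.73), and a gene without signal is blank. The linear unit and the sequencing depth are unknown, so that no counting error can be given, and levels are compared between libraries for 1 gene at a time. Sums over lists and limits on the mean use the deposited values as they are, uncorrected for gene length, and order no genes by abundance. The table heads the libraries of each population with the numbers 2 and 3, used as names here, since the labels number the replicates otherwise. Libraries sharing a number were more alike (Pearson's r 0.984 and 0.982 across genes, which are not independent replicates) than libraries of the same population (0.952 and 0.957), and the difference between the populations is therefore given within each number as well. All 11 genes of a list of periosteal stromal genes had a value in each library, with *Pdgfra*, the gene whose promoter drives CreER, between 7.44 and 7.87 and *Col1a1* between 7.44 and 7.85. Of the 11 genes, 4 had a higher and 7 a lower mean in PDGFRα reporter+ cells. With limma 0 passed an adjusted p of 0.05, and 2 had an unadjusted p under 0.05, beside 0.451% of all genes higher and 0.458% lower. The matrix genes *Lum* (log2 fold change 1.83, SE 0.33) and *Dcn* (1.39, SE 0.39) were higher without overlap, *Postn* had −1.14 (SE 1.45) with overlap. In a model blocked by library number 1 of the 11 passed, *Lum* (adjusted p = 0.0121 with limma), beside 0.153% of all genes higher and 0.0486% lower in that model. The mRNA of *Pdgfra* itself did not separate the populations (log2 fold change 0.05, SE 0.24, adjusted p = 1.0 with limma).

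C-type lectin receptors of this group sit on macrophages, monocytes, dendritic cells and neutrophils and recognise sugars and glycolipids of microbes and of damaged cells. Dectin-2 (*Clec4n*), MCL (*Clec4d*) and Mincle (*Clec4e*) have no signaling motif of their own and pair with the Fc receptor gamma chain (*Fcer1g*), MDL-1 (*Clec5a*) pairs with DAP12 (*Tyrobp*) or DAP10 (*Hcst*), and dectin-1 (*Clec7a*), the receptor for fungal beta-glucan, carries its own activating motif. All of them recruit the kinase Syk, which acts through CARD9, BCL10 and MALT1 on NF-κB. The Ms4a genes encode small proteins with 4 membrane spans. *Ms4a7* and the *Ms4a6* genes are mostly found in monocytes and macrophages, whereas the family's best known member, *Ms4a1*, encodes the B-cell antigen CD20.

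In GENCODE M21 on GRCm38, the build the submitters also name, the *Clec4* genes form a cluster of 60.03 kb on chromosome 6. *Clec4n* lies at 123229843 to 123247021, *Clec4d* at 123262111 to 123275265 and *Clec4e*, on the opposite strand, at 123281789 to 123289870. *Clec5a* (40574894 to 40585821) and *Clec7a* (129461591 to 129472779) are elsewhere on chromosome 6, and *Clec7a* is annotated as a polymorphic pseudogene in this release. The *Ms4a* genes lie within 283.8 kb of chromosome 19, with *Ms4a7* at 11321039 to 11336146, *Ms4a6c* at 11469366 to 11482192, *Ms4a6b* at 11516512 to 11531256 and *Ms4a6d* at 11586604 to 11604849. *Ms4a6c* and *Ms4a6b* each overlap a noncoding gene on the other strand, of which *BE692007*, over *Ms4a6c*, had no value in any library and *Gm19261*, over *Ms4a6b*, was not listed.

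Because the 3 *Ms4a6* genes are close paralogs, their transcripts were compared for sequence that reads could not assign. The coding sequences were 85.3% identical between *Ms4a6b* and *Ms4a6c*, 81.3% between *Ms4a6b* and *Ms4a6d* and 79.1% between *Ms4a6c* and *Ms4a6d*, over the bases that aligned. A stretch from coding position 343 to 402 shows how the 3 differ, with bases unlike those of *Ms4a6d* in capitals (GENCODE M21 transcripts, 5′ to 3′).
Ms4a6d: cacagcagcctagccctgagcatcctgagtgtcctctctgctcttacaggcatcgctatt
Ms4a6c: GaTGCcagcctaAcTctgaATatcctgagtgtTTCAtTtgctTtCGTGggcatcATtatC
Ms4a6b: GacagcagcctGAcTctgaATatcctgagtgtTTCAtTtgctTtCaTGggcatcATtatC
*Ms4a6c* differed from *Ms4a6d* at 21 of these bases and *Ms4a6b* at 18. Of all windows of 50 bases in its transcripts, 10.5% were also present in a transcript of another gene for *Ms4a6c*, 3.57% for *Ms4a6b*, 2.54% for *Ms4a6d*, 0.686% for *Clec4n* and 0.306% for *Ms4a7*. No such window was found for *Clec4d*, *Clec4e*, *Clec5a* or *Clec7a*. How the authors treated reads matching several genes is not given in the sources used here, so that the values of *Ms4a6b* and *Ms4a6c* in particular may hold some shared reads.

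Each of the 9 transcripts was higher in PDGFRα reporter+ than in PDGFRα reporter− cells, by 0.95 (*Clec4d*) to 1.55 (*Ms4a6d*) on the log2 scale, with a median of 1.31 compared with 0.00 (−0.0035) over all genes tested. For 7 of the 9 the populations did not overlap, compared with 7.59% of all genes tested that were higher without overlap and 8.1% that were lower (10.4% higher among genes with a mean log2 value below 0 and 6.45% among the others). The populations overlapped for *Clec4d* and *Clec4e*. Within each library number all 9 were higher in PDGFRα reporter+ cells, compared with 22.1% of all genes that were higher and 24.8% that were lower in both (25.5% higher below a mean of 0 and 20.7% above it). The log2 fold change was at least 1 for 7 of the 9, compared with 2.38% of all genes, beside 1.87% at −1 or less. Since these values chose the genes, the counts describe them and nothing is read from the comparison. In a model of this contrast (limma without a block), no gene of the table passed an adjusted p of 0.05 in either direction (0.0%), beside 65 higher (0.451%) and 66 lower (0.458%) genes with an unadjusted p under 0.05. This result depended on the model, as with the library number as a block limma called 22 genes higher (0.153%) and 7 lower (0.0486%). As the cells were sequenced in bulk, more cells carrying a transcript and more RNA per such cell cannot be told apart.

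**Figure D1:**
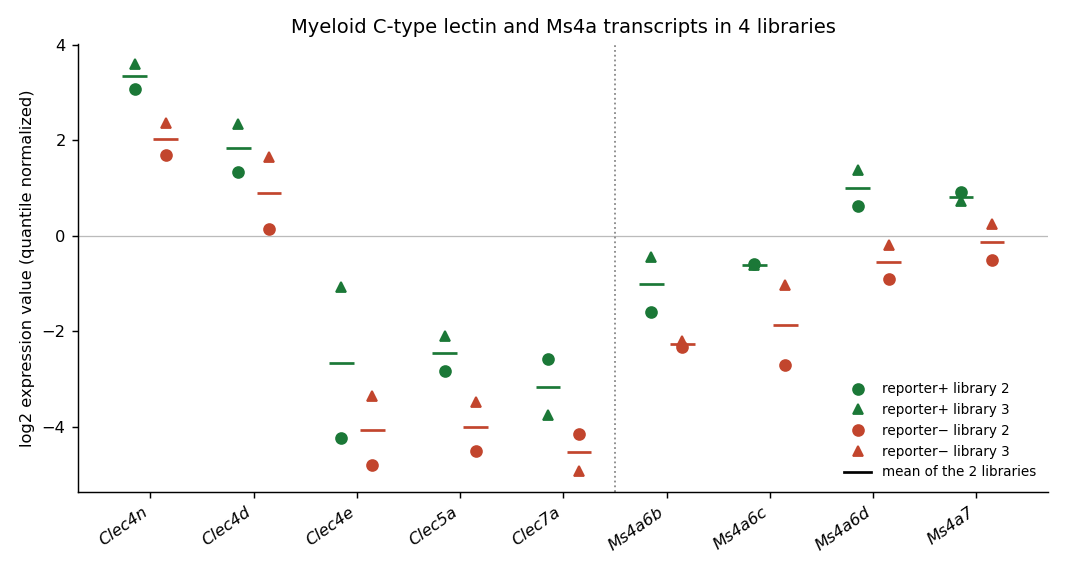
Deposited log2 values of the 9 transcripts (y axis, log scale) in the PDGFRα reporter+ (green) and PDGFRα reporter− (red) libraries, with circles for libraries numbered 2, triangles for libraries numbered 3 and bars for the mean of 2 libraries. The green points lie above the red points except for *Clec4d* and *Clec4e*, where a PDGFRα reporter− library 3 exceeds PDGFRα reporter+ library 2.

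Among the receptors that pair with the Fc receptor gamma chain, *Clec4n* (dectin-2, which binds fungal mannans) had log2 values of 3.08 and 3.59 in PDGFRα reporter+ libraries 2 and 3, and of 1.70 and 2.35 in PDGFRα reporter− libraries 2 and 3. Its populations were 0.73 apart at their nearest, and the log2 fold change of 1.31 (SE 0.32), or 2.48-fold, was made up of 1.38 and 1.24 within numbers 2 and 3. *Clec4d*, the receptor that is expressed together with Mincle on myeloid cells, had 1.34 and 2.35 in PDGFRα reporter+ and 0.14 and 1.65 in PDGFRα reporter− libraries. Here the populations overlapped, as the higher PDGFRα reporter− value exceeded the lower PDGFRα reporter+ value, and the log2 fold change was 0.95 (SE 0.64), with 1.20 within number 2 and 0.70 within number 3. It moved with every library left out, to 0.20 (PDGFRα reporter− library 2 omitted), 0.45 (PDGFRα reporter+ library 3), 1.46 (PDGFRα reporter+ library 2) and 1.71 (PDGFRα reporter− library 3). *Clec4e* (Mincle, which binds mycobacterial glycolipids) was the least even of the 9 genes, with −4.24 and −1.08 compared with −4.80 and −3.34. PDGFRα reporter+ library 3 alone stood clear of the other libraries, and the log2 fold change of 1.41 had an SE of 1.27, larger than for any other of the 9 genes. It was 0.56 within number 2 and 2.26 within number 3, and without PDGFRα reporter+ library 3 it was −0.17. Leaving out PDGFRα reporter− library 2, PDGFRα reporter− library 3 or PDGFRα reporter+ library 2 gave 0.68, 2.14 and 2.99.

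*Clec5a*, the DAP12-coupled receptor, had log2 values of −2.82 and −2.10 in PDGFRα reporter+ and −4.51 and −3.49 in PDGFRα reporter− libraries. The populations did not overlap, and their difference of 1.54 (SE 0.65, or 2.90-fold) was similar within numbers 2 and 3 (1.69 and 1.39). For *Clec7a* (dectin-1), the values were −2.58 and −3.74 compared with −4.14 and −4.93, a difference of 1.37 (SE 0.72) on the log2 scale. Its populations did not overlap either, with 1.56 and 1.19 within the numbers, and it was the only 1 of the 9 genes whose number 3 libraries were lower than its number 2 libraries in both populations. Without PDGFRα reporter+ library 2 the difference was 0.79. These low values need care, since log2 fold changes varied more among weakly measured genes. Their SD was 0.688 over genes with a mean log2 value below 0 and 0.216 over the others, and a log2 fold change of at least 1 was found for 7.02% of the former and 0.479% of the latter. The mean was below 0 for 5 of the 9 genes (*Clec4e*, *Clec5a*, *Clec7a*, *Ms4a6b* and *Ms4a6c*). With a pseudocount of 1 added on the linear scale, their log2 fold changes were 0.22, 0.15, 0.10, 0.33 and 0.34 in this order. Those of the others were 1.12 for *Clec4n*, 0.66 for *Clec4d*, 0.83 for *Ms4a6d* and 0.52 for *Ms4a7*.

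In the *Ms4a* family, *Ms4a6d* had log2 values of 0.63 and 1.37 in PDGFRα reporter+ and −0.91 and −0.19 in PDGFRα reporter− libraries. It showed both the largest log2 fold change of the 9 genes (1.55, SE 0.44, or 2.93-fold) and the most even one, 1.54 and 1.56 within numbers 2 and 3. *Ms4a7*, a marker of tissue macrophages, had 0.92 and 0.72 compared with −0.51 and 0.24. The populations did not overlap, but the log2 fold change of 0.96 (SE 0.37) came from 1.43 within number 2 and 0.48 within number 3, and was 0.58 without PDGFRα reporter− library 2.

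The remaining paralogs diverged in how they followed the library numbers. *Ms4a6c* had nearly the same log2 value in both PDGFRα reporter+ libraries (−0.59 and −0.62), whereas its PDGFRα reporter− libraries lay apart (−2.70 and −1.03). The log2 fold change, 1.26 (SE 0.67), was 2.11 within number 2 and 0.41 within number 3. Omitting PDGFRα reporter− library 2 gave 0.43, and omitting PDGFRα reporter− library 3 gave 2.10. *Ms4a6b* was the converse, with −1.59 and −0.44 in PDGFRα reporter+ libraries and −2.33 and −2.21 in PDGFRα reporter− libraries, and the log2 fold change, 1.25 (SE 0.55), was 0.74 within number 2 and 1.77 within number 3 and 0.68 without PDGFRα reporter+ library 3. For both paralogs the 2 populations did not overlap.

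**Figure D2:**
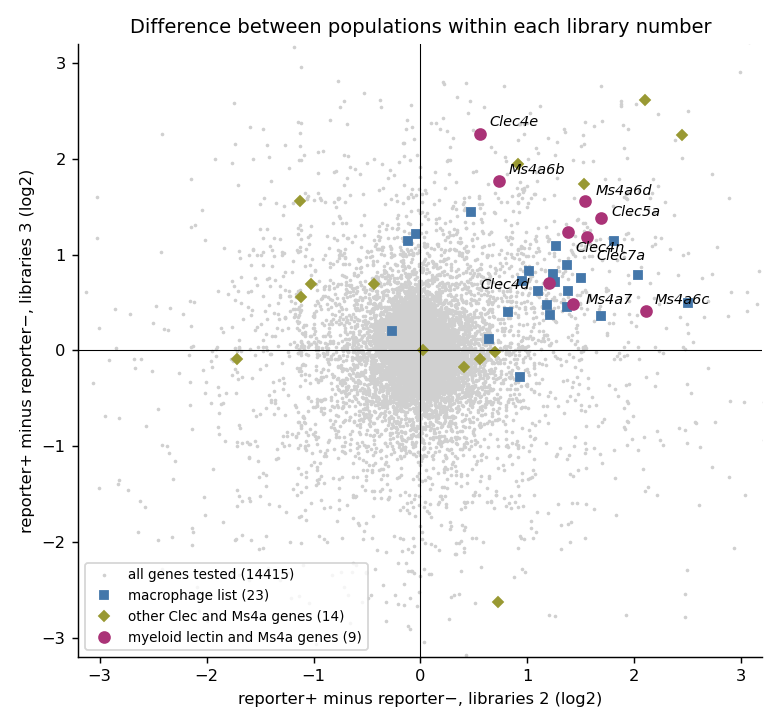
Difference of log2 values between PDGFRα reporter+ and PDGFRα reporter− cells within libraries 2 (x axis) and within libraries 3 (y axis), for the 9 genes (purple), 23 genes of the macrophage list (blue), 14 other *Clec* and *Ms4a* genes (olive) and all 14415 genes tested (gray; 49 genes lie outside the limits of 3.2). The 9 genes lie between 0.41 and 2.26 on both axes, in the quadrant of genes higher in PDGFRα reporter+ cells within both numbers.

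The difference between library numbers was also read. Over all genes, limma found 1190 genes (8.26%) higher and 1018 genes (7.06%) lower in libraries 3 at an adjusted p under 0.05 when the population was not in the model, and 1654 genes (11.5%) higher and 1411 genes (9.79%) lower with the population as a second term. In both models the error of a gene is made from its differences between the populations, by which the 9 genes were chosen, so that their values are described without a test. Both populations were higher in library 3 for 6 of the 9 genes, compared with 41.1% of all genes. *Clec4e* had a mean difference of 2.31 (number 3 minus number 2), which was 1.17 without PDGFRα reporter+ library 3. For *Clec4d* it was 1.26, and 0.66 without PDGFRα reporter− library 2. In these 2 genes the numbers lay further apart than the populations. *Clec7a* had a mean difference of −0.97, the only 1 of the 9 below 0. Omitting 1 library gave −0.19 (PDGFRα reporter+ library 2), −0.38 (PDGFRα reporter− library 3), −1.57 (PDGFRα reporter+ library 3) or −1.75 (PDGFRα reporter− library 2), so that its size rested on single libraries while its sign did not change.

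The other genes of the same families were then examined. Of 28 other *Clec* genes listed, 8 were blank throughout and 12 were measured in every library. Among these 12, 0 passed an adjusted p of 0.05 with limma in either direction, and 1 had an unadjusted p under 0.05 (0.451% of all genes higher). Within both numbers 4 had a higher and 1 a lower value in PDGFRα reporter+ cells (22.1% and 24.8% of all genes), and the median log2 fold change was 0.17. *Clec4a2*, the inhibitory receptor DCIR of the same gene cluster, had −2.46 and −1.67 compared with −4.56 and −4.29 (log2 fold change 2.36, SE 0.57, adjusted p = 1.0). *Clec12a*, an inhibitory receptor of myeloid cells, had −1.34 and −0.21 compared with −2.88 and −1.95 (1.64, SE 0.63, adjusted p = 1.0). *Clec10a*, a galactose-type lectin of macrophages and dendritic cells, also differed by more than 1 on the log2 scale (1.43), but its SE was 1.49. *Clec2d*, named for its deposited mean, had 5.74 and 6.23 compared with 5.34 and 6.40, so that its populations overlapped (0.11, SE 0.42).

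Of 15 other *Ms4a* genes, 11 were blank in all libraries, including the B-cell gene *Ms4a1* and the mast cell gene *Ms4a2*. Only 2 had a value in each library. *Ms4a14* had −3.09 and −3.35 in PDGFRα reporter+ and −5.53 and −5.60 in PDGFRα reporter− libraries (log2 fold change 2.35, SE 0.58, adjusted p = 1.0 with limma), without overlap. *Ms4a4d* had −2.03 and 1.22 compared with −1.01 and 0.54, and its direction differed between the numbers (−1.02 and 0.69).

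The partners through which the receptors signal were also measured. *Tyrobp*, encoding DAP12, had log2 values of 3.05 and 3.45 in PDGFRα reporter+ and 1.88 and 2.61 in PDGFRα reporter− libraries, without overlap (log2 fold change 1.00, SE 0.32, adjusted p = 1.0 with limma). With the library number as a block, *Tyrobp* passed (adjusted p = 0.0437), the only 1 of the 18 adaptor and kinase genes tested that did, beside 0.153% of all genes. The Fc receptor gamma chain gene *Fcer1g* had 1.84 and 2.15 compared with 0.78 and 1.88, where the populations overlapped (0.67, SE 0.42). *Hcst*, encoding DAP10, was blank in PDGFRα reporter+ library 2 and PDGFRα reporter− library 3. The kinase gene *Syk* did not overlap between the populations (0.51, SE 0.37), and *Card9*, an adaptor found mainly in myeloid cells, had −2.83 and −2.04 compared with −4.12 and −2.92 (1.08, SE 0.68). The CARD9 partners that most cell types express gave log2 fold changes near 0, with 0.00 (−0.00012) for *Bcl10* and 0.04 for *Malt1*. *Plcg2*, a phospholipase activated by Syk, had a log2 fold change of 0.41 (SE 0.35).

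Of 18 adaptor and kinase genes with a value in all libraries, 0 passed an adjusted p of 0.05 with limma in either direction. An unadjusted p under 0.05 was found for 1 (0.451% of all genes higher). Within both numbers 11 were higher and 1 lower (22.1% and 24.8% of all genes, with 25.5% higher below a mean of 0, where 10 of the 18 lay), and the median log2 fold change was 0.42. Of 9 genes encoding inhibitors of these pathways, also 0 passed (0 with an unadjusted p under 0.05), 6 were higher and 1 lower within both numbers (22.1% and 24.8% of all genes), and the median was 0.69. *Ptpn6*, encoding the phosphatase SHP-1 and one of the genes the study followed up, had −0.16 and 0.18 compared with −0.91 and −0.51 (0.72, SE 0.35, adjusted p = 1.0). Among 15 measured NF-κB genes and target genes of the pathway, 0 passed, and 2 had an unadjusted p under 0.05 (0.451% of all genes higher). Within both numbers 4 were higher and 2 lower, near the 22.1% and 24.8% of all genes, and the median was 0.01. With the block 1 of these 15 passed, *Cxcl1*, a chemokine gene that was higher in PDGFRα reporter+ cells (adjusted p = 0.0345 with limma), beside 0.153% of all genes. The cytokine gene *Il1b* was blank in all libraries.

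**Figure D3:**
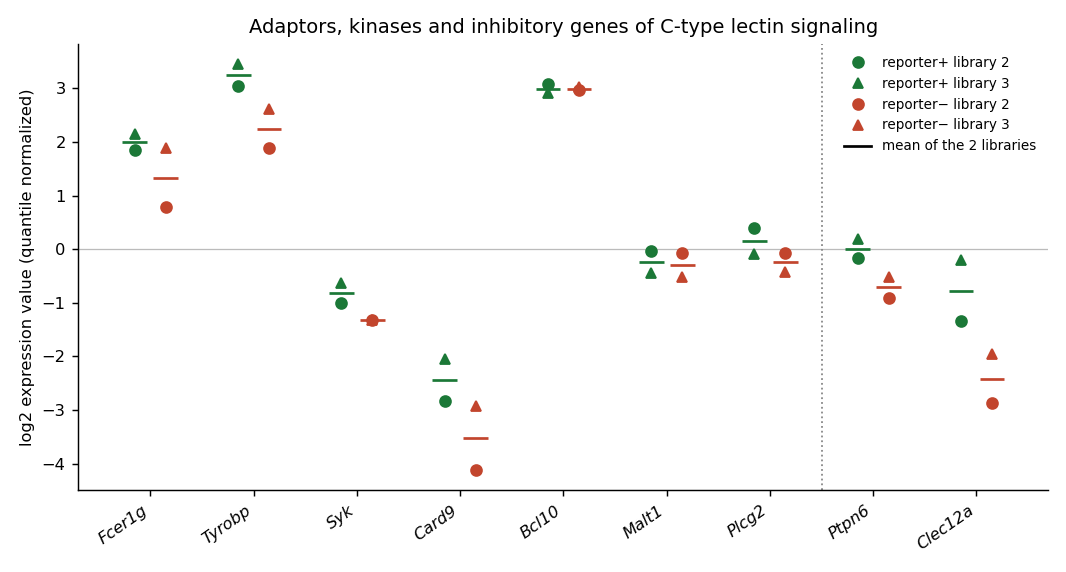
Log2 values (y axis, log scale) of adaptor and kinase genes (left of the dotted line) and of inhibitory genes (right) of C-type lectin signaling, in PDGFRα reporter+ (green) and PDGFRα reporter− (red) libraries 2 (circles) and 3 (triangles), with bars for the mean of 2 libraries. *Tyrobp*, *Syk*, *Card9*, *Ptpn6* and *Clec12a* show separate populations, whereas *Bcl10* and *Malt1* lie at the same level in both. The inhibitory genes plotted are part of a list of 9, of which 2 had a lower mean in PDGFRα reporter+ cells.

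Genes of macrophages were read beside the 9 transcripts. Of 26 genes on a macrophage list, 23 had a value in all libraries and 0 were blank throughout, although the cells had been sorted as CD45-negative. Within both numbers 19 of the 23 were higher in PDGFRα reporter+ cells and 0 lower, compared with 22.1% higher of all genes, and 10 did not overlap, compared with 7.59%. None passed an adjusted p of 0.05 with limma (0 of 23), and the median log2 fold change was 0.93. An unadjusted p under 0.05 was found for 5 of the 23, all higher, compared with 0.451% of all genes that were higher. With the library number as a block 1 of the 23 passed, *C1qb*, a complement gene that was higher in PDGFRα reporter+ cells (adjusted p = 0.0437 with limma), beside 0.153% of all genes. The summed linear level of the list was 274.3 and 305.2 in PDGFRα reporter+ and 111.04 and 196.2 in PDGFRα reporter− libraries 2 and 3. Most of this sum came from *Lyz2*, and without it the sum was 73.8 and 70.1 compared with 34.1 and 43.7. *Ptprc*, the gene of CD45, had log2 values of −1.28 and −0.39 compared with −2.30 and −1.22. The myeloid transcription factor *Spi1* (PU.1) had −0.94 and 0.48 compared with −2.21 and −0.61, and the receptor gene *Csf1r* 1.08 and 1.60 compared with −0.11 and 1.13. *Adgre1*, a surface marker of mature macrophages, had a mean of 1.76 ± 0.57 compared with 0.63 ± 0.91 (SD, n = 2), *Cd68* 2.87 and 2.84 compared with 1.77 and 2.22, and *Lyz2* 7.65 and 7.88 compared with 6.27 and 7.25. The part of macrophages in the difference of the 9 genes was not tested.

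With the mean log2 value of the 23 macrophage genes subtracted in each library, a calculation added after seeing the data, the median log2 fold change of the 9 genes was 0.42 in place of 1.31. The 9 values ran from 0.07 (*Clec4d*, *Ms4a7*) to 0.67 (*Ms4a6d*). The 9 genes were chosen by their difference between the populations, and the macrophage list was drawn up with earlier results known. Values above 0 may come from the choice, which was not tested, and nothing is read from them. The relative values were above 0 within both numbers for 5 genes, *Clec4n*, *Clec4d*, *Clec5a*, *Clec7a* and *Ms4a6d*. Relative to the macrophage mean, *Clec5a* was higher by 0.59 and 0.72 within numbers 2 and 3, *Clec4n* by 0.28 and 0.57, and *Clec4d* by 0.10 and 0.03. *Clec4e* (−0.54 and 1.60) and *Ms4a6b* (−0.37 and 1.10) were below 0 within number 2, and *Ms4a6c* (1.01 and −0.26) and *Ms4a7* (0.33 and −0.18) within number 3.

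**Figure D4:**
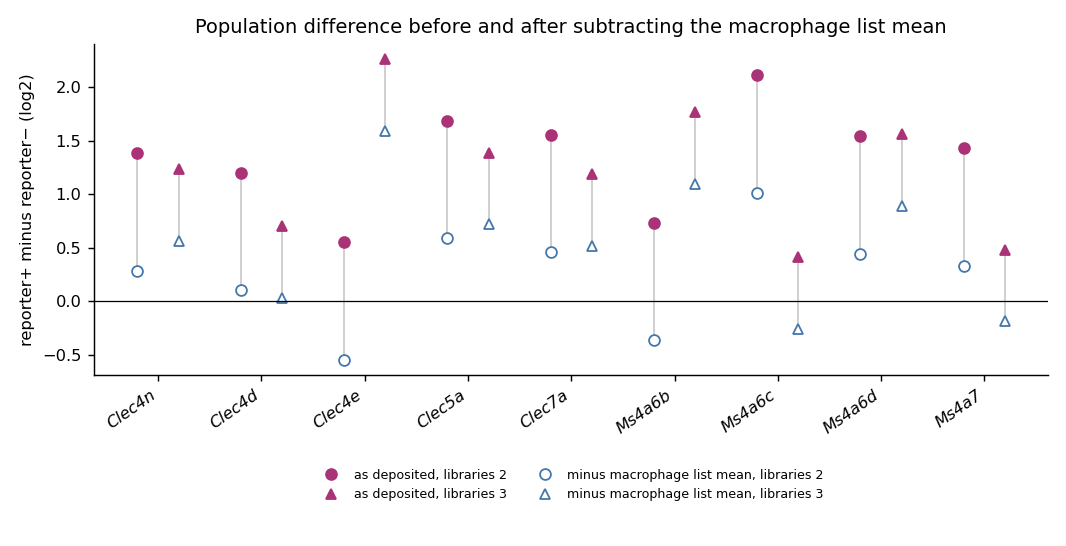
Difference between PDGFRα reporter+ and PDGFRα reporter− cells (y axis, log2) within libraries 2 (circles) and libraries 3 (triangles), as deposited (filled) and after subtracting the mean log2 value of 23 macrophage genes in the same library (open). The open symbols lie between −0.54 and 1.60, with 4 of the 18 below 0.

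Lists of other blood cells held few measured genes. Of 10 neutrophil genes, which matter because *Clec4d*, *Clec4e* and *Clec5a* are also expressed by neutrophils, 4 were blank throughout (*S100a9*, *Ltf*, *Ngp* and *Retnlg*) and only *Camp* had a value in all libraries (−1.68 and 0.51 compared with −1.85 and −0.87). The summed level of this list was 0.367 and 4.12 in PDGFRα reporter+ and 0.331 and 1.04 in PDGFRα reporter− libraries 2 and 3. PDGFRα reporter+ library 3 was the highest, as for *Clec4e*, but also as for *Clec4n*, *Clec4d*, *Clec5a*, *Ms4a6b* and *Ms4a6d*. *S100a8* had a log2 value of 1.39 in PDGFRα reporter+ library 3 and was blank in PDGFRα reporter− library 2. The part of such cells in the value of *Clec4e* was not tested. A value in every library was found for 2 of 8 dendritic cell genes, 1 of 8 B-cell genes, 1 of 8 T-cell genes and 0 of 6 mast cell genes, with *Flt3*, *Ms4a1*, *Cd79b*, *Cd3e* and *Fcer1a* blank throughout. The summed level of each of these 4 lists was at most 0.698 in any library.

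To find transcripts with a like pattern, the 4 values of each gene were centered on their mean and compared with the mean centered profile of the 9 genes (0.32 and 0.97 in PDGFRα reporter+ and −1.04 and −0.25 in PDGFRα reporter− libraries 2 and 3). Among 10220 other genes whose mean was not below 0, *Fcgr2b*, encoding the inhibitory Fc gamma receptor IIb, was the nearest (Euclidean distance 0.298), followed by *Pitx1* (0.325), a hindlimb transcription factor, *Tyrobp* (0.341), *Mrc1* (0.357), the macrophage mannose receptor, and *Rnf128* (0.360), a ubiquitin ligase. *Clec4n* (0.143) and *Ms4a6d* (0.273) were themselves the closest of the 9 to this profile, and *Clec4e* (1.83) and *Clec7a* (1.70) the farthest. The likeness rests on 4 libraries and is a description.

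Promoter sequences from RefSeq (GRCm38.p6) were found for 7 of the 9 genes, all but *Clec4n* and *Ms4a6d*. In the 150 bases before the start site, the letters GAGGAA, the core recognised by PU.1, were searched on both strands, since PU.1 governs many myeloid genes. They occurred in 3 of the 7 genes, compared with 14.5% of all 32851 promoters in the set and, counting a gene once over all its promoters as for the 7, 16.0% of the genes tested. The 3 promoters are shown with these matches in capitals, read along the strand of the gene.
Clec4e, chr6:123289872-123290021, minus strand: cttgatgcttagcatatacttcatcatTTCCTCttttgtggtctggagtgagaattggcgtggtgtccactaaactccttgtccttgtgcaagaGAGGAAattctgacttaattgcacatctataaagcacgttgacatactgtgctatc
Clec5a, chr6:40585806-40585955, minus strand: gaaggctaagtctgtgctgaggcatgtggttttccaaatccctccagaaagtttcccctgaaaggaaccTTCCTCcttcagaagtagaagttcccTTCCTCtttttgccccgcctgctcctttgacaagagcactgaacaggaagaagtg
Clec7a, chr6:129472780-129472929, minus strand: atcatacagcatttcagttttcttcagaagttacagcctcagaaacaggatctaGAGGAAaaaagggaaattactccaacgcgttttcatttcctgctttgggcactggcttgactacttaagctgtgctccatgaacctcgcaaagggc
*Clec4e* and *Clec5a* held 2 matches each and *Clec7a* held 1. The letters TTNCNNAA, a loose form of the C/EBP site, occurred in 6 of the 7 genes (all but *Clec7a*), compared with 22.7% of promoters and 19.4% of the genes tested. The *Ms4a6b* and *Ms4a6c* matches are the same letters in a run of sequence that both windows share, so that they are not independent occurrences. Of the 150 bases searched, 106 for *Ms4a6b* and 16 for *Clec5a* lie in exons of the gene in GENCODE M21, so that the *Ms4a6b* window is mostly transcribed sequence. TGANTCA (AP-1) occurred in *Ms4a7* alone (4.24% of promoters, 3.72% of the genes tested), TATAAA in *Clec4e* alone (7.57% and 4.69%) and a match to the NF-κB site in none of the 7 genes (0.228% and 0.321%). No match overlapped another. These are occurrences of letters, not measured binding sites.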

How the data were processed

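Total RNA of 2 PDGFRα reporter+ and 2 PDGFRα reporter− populations was sequenced by the authors as stranded paired-end Illumina libraries. The authors deposited log2 values after quantile normalization, 1 per gene symbol and library. The submitters' processing notes name bcl2fastq 2.17.1.14, Partek 7.0 and GRCm38.p6. The aligner, counting, annotation, filters and depth are not given in the sources used here. Columns were assigned to a population by their heading only. Nothing says that the libraries came from separate animals beyond the pooling, so that p-values measure the spread between these samples.

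For the 14415 genes measured in each of the 4 libraries, limma 3.58.1 in R 4.3.3 (lmFit, eBayes with a trend, two-sided, without a block) compared populations and, separately, library numbers, with Benjamini-Hochberg adjustment and a threshold of 0.05. An exact permutation test with 2 against 2 libraries cannot go below p = 0.333. Models were tested on simulated data. The genes, gene lists and tests were chosen with earlier results of these data known. Named beside the 9 genes were defining markers, signaling partners and, of each other family, the gene with the highest mean and those with a log2 fold change beyond 1. Other genes named were chosen after their values were seen. Likeness used Euclidean distance. Positions and transcripts are from GENCODE M21, and coding sequences were aligned with Biopython 1.88. Tables were handled with Python 3.11.15, numpy 2.4.6 and pandas 2.3.3, and plots made with matplotlib 3.10.9. Alternatives are given in the closing section. Some items are not reported here.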

Additional observations from a re-analysis of the deposited data

Results flagged for a closer look

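For *Ms4a6c* and *Ms4a7* the difference between library numbers went in opposite directions in the 2 populations. *Ms4a6c* was lower in library 3 than in library 2 of PDGFRα reporter+ cells by 0.03 on the log2 scale (−0.031) and higher in library 3 of PDGFRα reporter− cells (1.67). *Ms4a7* gave −0.20 and 0.75. With 1 library for each population and number, this difference was not tested.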

How the results depend on the processing

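All 9 transcripts were higher in PDGFRα reporter+ cells with a pseudocount of 1, with each library centered on its median and with the replicate block. The median log2 fold change was 0.34 with a pseudocount of 1, which shrinks low values, and 0.42 relative to the macrophage list. It ranged from 0.98 to 1.71 with 1 library left out. Without PDGFRα reporter+ library 3 the value of *Clec4e* reversed (range −0.17 to 2.99). The samples share a heading number, and the labels do not say that it marks a common preparation. Deviations from the population means correlated at 0.681 between libraries of the same number. With the number as a replicate block, limma called 29 genes, in place of 0 (131 with an unadjusted p under 0.05) without it. Without the block, 0 genes were also called with any 1 library left out. The count called between numbers was 582 with eBayes without a trend in place of 2208, and 225 to 1034 when any 1 of the 4 libraries was left out, which leaves fewer samples. The cause of the change with the trend was not tested. Differences between numbers ranged from −0.11 to 1.27 for *Clec4n*, −0.25 to 1.52 for *Ms4a6b*, −0.24 to 1.87 for *Ms4a6c*, −0.048 to 1.51 for *Ms4a6d* and −0.44 to 0.99 for *Ms4a7*, with 1 library left out. The sign turned without PDGFRα reporter+ library 3 or PDGFRα reporter− library 2 for *Clec4n* and *Ms4a6d*, without PDGFRα reporter+ library 3 for *Ms4a6b*, and without PDGFRα reporter− library 2 for *Ms4a6c* and *Ms4a7*. As the depth is unknown, its limit on the 5 genes with a mean log2 value below 0 cannot be given.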

Other observations

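Osteoclasts arise from the same precursors as macrophages, and 7 of 8 osteoclast genes were measured in every library. Of these, 5 were higher in PDGFRα reporter+ cells within both numbers and 0 lower, compared with 22.1% higher of all genes (25.5% of those with a mean log2 value below 0, as 5 of the 7 had). Further, 5 did not overlap, compared with 7.59% of all genes (10.4% of those below 0), and 0 passed an adjusted p of 0.05 with limma (1 an unadjusted p under 0.05). *Acp5*, encoding tartrate-resistant acid phosphatase, had log2 values of 1.31 and 1.95 compared with 0.87 and −0.52. *Dcstamp*, needed for cell fusion, had −2.43 and −0.56 compared with −2.53 and −2.94, so that PDGFRα reporter+ library 3 stood apart, as it did for *Clec4e*. Both counts of 5 include *Ctsk*, encoding cathepsin K, with log2 values of 4.38 and 4.42 compared with 4.05 and 3.97. It was also the gene with an unadjusted p under 0.05 with limma. The study reports high *Ctsk* expression in both populations and describes periosteal cells positive for cathepsin K, so that *Ctsk* does not mark osteoclasts alone here. The cells behind its value were not tested.

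Genes of the endothelial and erythroid lineages, both gated out by the sort, were also read. Of 5 endothelial genes measured throughout, 5 were lower in PDGFRα reporter+ cells within both numbers, compared with 24.8% of all genes. The populations did not overlap for 4 of them, compared with 8.1% of all genes. With limma 0 passed an adjusted p of 0.05, and 4 had an unadjusted p under 0.05, compared with 0.458% of all genes that were lower. All 5 had a mean log2 value below 0, where log2 fold changes varied more. *Pecam1*, the gene of CD31, had −4.68 and −4.79 compared with −1.99 and −1.11. Of 2 erythroid genes measured throughout, 1 was lower within both numbers, compared with 24.8% of all genes. This gene, *Klf1*, had low values of −5.13 and −5.02 compared with −2.55 and −3.39. The other, *Epor*, changed direction between the numbers (0.50 and −0.87).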
